A study of Mus musculus with 4 samples.

Results

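The 7 genes described here are the transcription factor genes Tfeb, Tfe3, Mitf and Tfec, which form the MiT/TFE family, and Flcn, Fnip1 and Fnip2, which code for a complex that regulates these factors. They were chosen by name, and all 7 were found among the 55573 genes of the table. The measurement was ribosome-protected signal in primary mouse myoblasts, the proliferating muscle precursors, taken from hind limbs of animals 3 weeks old and collected on day 2 of proliferation. There were 2 wild-type (WT) libraries and 2 whose labels give them as eIF5A-KO, a knockout of this translation factor. Both groups were grown in DMEM with 10% fetal bovine serum, antibiotics and 10 ug/ml FGF, and cycloheximide at 100 ug/ml held the ribosomes in place before lysis. According to the study's methods, the knockout is of a floxed eIF5A allele, removed by a tamoxifen-dependent Cre from the Pax7 locus, with littermates as controls. Such a Cre acts in cells that express Pax7. The labels do not say whether libraries of a group came from separate animals or cultures, so p-values measure the spread between these libraries, which may be technical.

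MiT/TFE factors are basic helix-loop-helix leucine zipper proteins that bind E-box sites in the promoters of lysosomal and autophagy genes. When amino acids are plentiful, the kinase complex mTORC1 phosphorylates TFEB and TFE3 at the lysosome, and 14-3-3 proteins hold the phosphorylated factors in the cytosol. FLCN, joined to FNIP1 or FNIP2, activates the GTP hydrolysis of RagC and RagD, which presents TFEB and TFE3 to mTORC1. The translation factor eIF5A carries hypusine, an amino acid made from spermidine, and helps ribosomes across consecutive prolines. TFEB is a reported target of hypusinated eIF5A in immune cells, and the comparison asks whether ribosome-protected signal on this family differs between the groups in myoblasts.

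Because eIF5A acts at consecutive prolines, the coding sequences were searched for them. The longest complete coding sequence in GENCODE M21 (build GRCm38) had a run of 3 prolines in Tfeb, Tfe3 and Mitf, with 2 such runs in Tfe3, and none in Tfec, Flcn, Fnip1 or Fnip2, where the longest run was 2. Of 21526 genes with a complete coding sequence, 4307 (20.01%) had at least 1 run of 3 or more. The deposited values are per gene, so signal at these codons was not measured. Each run is shown on the coding strand in a window of 30 bases, with the proline codons in capitals.
Tfeb, residues 120 to 122 (chr17:47786158-47786187, plus strand): ttccagtcgCCCCCGCCTgtgcccggggag
Tfe3, residues 166 to 168 (chrX:7766811-7766840, plus strand): ctgagtcgtCCACCTCCTgctcaggtgccc
Tfe3, residues 217 to 219 (chrX:7767547-7767576, plus strand): gctctcaccCCACCACCAgggccttccagt
Mitf, residues 271 to 273 (chr6:98003926-98003955, plus strand): cagggcctgCCACCGCCAggccttaccatc

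Related genes can share reads as short as ribosome footprints, so the members were compared with each other. The proteins of Tfe3 and Mitf were identical at 60.9% of aligned residues, Tfeb and Tfe3 at 50.5%, Tfeb and Mitf at 50.2%, and Fnip1 and Fnip2 at 55.4%. All 4 transcription factors had a stretch of 17 identical residues, in the basic region that contacts DNA. Its first 10 residues are given as codons to show how far the genes differ underneath an identical protein. Capitals mark the 6 of 30 positions at which the 4 genes were not all the same, and 24 positions were shared.
Tfeb, residues 290 to 299 (chr17:47788260-47788289, plus strand): aaGgagCgGcagaaGaaAgacaaTcacaac
Tfe3, residues 342 to 351 (chrX:7770797-7770826, plus strand): aaGgagCgAcagaaGaaAgacaaTcacaac
Mitf, residues 308 to 317 (chr6:98006164-98006193, plus strand): aaAgagAgGcagaaAaaGgacaaTcacaac
Tfec, residues 107 to 116 (chr6:16844199-16844228, minus strand): aaGgagAgAcagaaAaaGgacaaCcacaac
The longest run of identical bases between transcripts of any pair of the 7 genes was 29, between Tfeb and Tfe3, followed by 20 for Tfeb with Mitf and for Fnip1 with Fnip2. Reads that fall wholly in the run of 29 could belong to either gene, and how the authors' counting treated them is not given in the sources used here. No annotated exon of another gene overlapped an exon of the 7.

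Each library held between 642429 and 704006 reads, of which protein-coding genes took 41.5% and 33.9% in WT, and 65.4% and 59.2% of it in the libraries labelled eIF5A-KO. The authors gave RPKM, the reads of a gene scaled by its length and by a library size, and whole reads were recovered from these values. Eif5a itself was at 34.9 and 65.2 RPKM in WT and at 60.3 and 59.4 RPKM under the knockout label. The targeted gene was therefore not lower, and every direction below compares libraries labelled eIF5A-KO with WT, by label. Myoblast markers summed to 316 and 189 RPKM in WT against 68.7 and 112 RPKM. All 8 had reads, Myf6 only 1, in WT library 2. Myog had 90.98 and 4.26 RPKM in WT. Cdh15 and Myf6 overlapped between groups, and each other myoblast marker was lower in both libraries labelled eIF5A-KO. Fibroblast markers summed to 442 and 258 RPKM against 723 and 317 RPKM, so the groups overlapped. Dcn made up 459.87 RPKM of the sum in eIF5A-KO library 1. Only Pdgfra was higher, and only Thy1 lower, in both libraries labelled eIF5A-KO than in both WT libraries. Endothelial markers summed to 102 and 95.1 RPKM against 131 and 106 RPKM. The part of these cell types in the results was not tested, and in bulk libraries fewer cells of a type and less RNA per cell cannot be told apart.

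The 7 genes were read thinly, with 0 to 122 reads each over the 4 libraries, and the spread of 95% Poisson intervals around each library's value sets what can be seen. Such intervals, like the floor of 3 reads used for a count of 0, hold counting error alone, because reads copied by PCR are not independent molecules. Of the 7 genes, 6 reached the mean of 1 RPKM required for the test, which was limma on log2(RPKM + 1) over 11363 genes with Benjamini-Hochberg adjustment. At an adjusted p under 0.05, 0 of the 6 passed, where 0.0968% of all tested genes were lower and 0.0088% higher. Before adjustment, too, 0 of the 6 had a p under 0.05, beside 4.46% of all genes lower and 2.86% higher, or 7.32% in either direction. Values of the groups did not overlap for 3 of the 6, with Tfe3 and Flcn lower and Fnip1 higher in the libraries labelled eIF5A-KO. Over all tested genes 20.3% were lower and 20.1% higher without overlap, so that 2 and 1 of 6 are near the background.

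**Figure D1:**
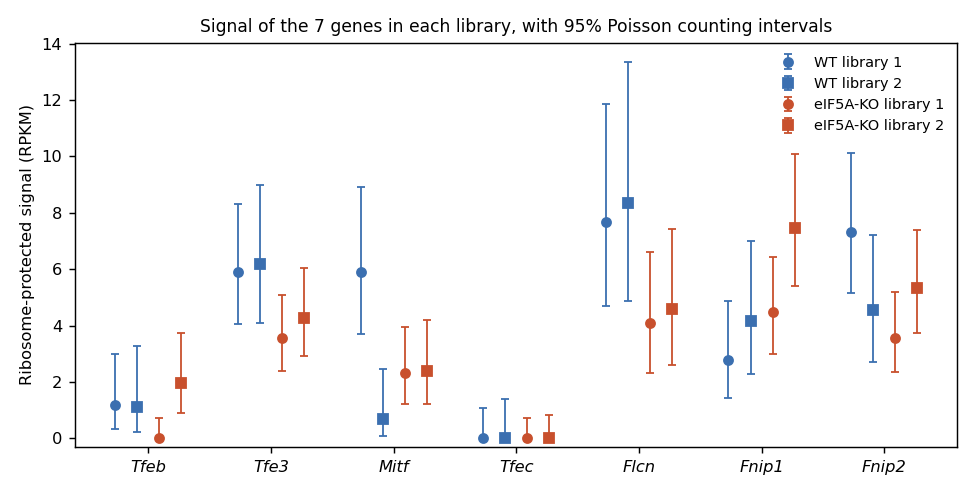
Ribosome-protected signal in RPKM (vertical axis) of each of the 7 genes in WT libraries 1 and 2 (blue) and eIF5A-KO libraries 1 and 2 (red). Points are single libraries and bars are 95% Poisson intervals from the reads behind each point; Flcn and Tfe3 lie lower and Fnip1 higher in both red libraries, Mitf is split between the WT libraries, and Tfec is at 0 throughout.

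Tfeb (ENSMUSG00000023990; GRCm38 chromosome 17, 47737030 to 47792419, plus strand; 8 exons in the transcript used) codes for the best known driver of lysosome formation. WT libraries 1 and 2 had 1.17 and 1.12 RPKM, from 4 and 3 reads, whereas the libraries labelled eIF5A-KO had 0 and 1.97 RPKM, from 0 and 9 reads. The WT libraries were nearly equal, and the libraries labelled eIF5A-KO lay to either side of them. For eIF5A-KO library 1, 0 reads allow up to 0.583 RPKM at the floor of 3 reads. Its 95% Poisson interval ended at 0.717 RPKM, under the 0.899 RPKM at which that of eIF5A-KO library 2 began, so these intervals did not overlap. WT averaged 1.15 ± 0.033 RPKM and the eIF5A-KO label 0.983 ± 1.39 RPKM (SD, n = 2 each). By limma the estimate of log2 fold change was -0.32 ± 0.82 (SE; adjusted p 0.911), and its 95% interval ran from -2.34 to 1.70. With WT near 1 RPKM, the lower bound lies beyond what a loss of all signal could give on the log2(RPKM + 1) scale, so the interval sets no limit on a decrease. The estimate was -1.46 with a pseudocount of 0.1 and -1.69 by limma-voom on the recovered reads, an alternative chosen after seeing the data. Without eIF5A-KO library 1 the log2 fold change was 0.47. Without eIF5A-KO library 2 the group is 1 library with 0 reads, whose fitted value is set by the pseudocount, so no fold is given.

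Tfe3 (ENSMUSG00000000134; chromosome X, 7762560 to 7775202, plus strand; 10 exons in the transcript used) codes for the closest partner of TFEB in nutrient control. Its signal was 5.91 and 6.19 RPKM in WT, from 33 and 27 reads, whereas the libraries labelled eIF5A-KO had 3.57 and 4.28 RPKM, from 30 and 32 reads. Both libraries labelled eIF5A-KO were below both WT libraries in RPKM, while the reads themselves overlapped. WT averaged 6.05 ± 0.196 RPKM and the eIF5A-KO label 3.92 ± 0.4995 RPKM (SD, n = 2 each). By limma the estimate of log2 fold change was -0.52 ± 0.36 (SE; adjusted p 0.697), and the 95% interval ran from -1.40 to 0.35. Pooling the reads of each group gave 0.647 of the WT rate, with an exact 95% counting interval of 0.446 to 0.939 that leaves out the variation between libraries. That interval holds for the authors' library sizes. With libraries scaled to the same sum over all genes the log2 fold change was -0.012, and with either scaling Tfe3 failed the test across libraries.

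Mitf (ENSMUSG00000035158; chromosome 6, 97807052 to 98021349, plus strand; 10 exons in the transcript used) codes for the factor known for pigment cells and osteoclasts. Its signal was 5.89 and 0.685 RPKM in WT, from 22 and 2 reads, whereas the libraries labelled eIF5A-KO had 2.31 and 2.40 RPKM, from 13 and 12 reads. The WT libraries enclosed the other group, and their Poisson intervals of 3.69 to 8.92 and 0.083 to 2.47 RPKM did not overlap each other. By limma the estimate of log2 fold change was -0.022 ± 0.72 (SE; adjusted p 0.995). Its sign rested on the WT library used, being 0.99 without WT library 1 and -1.04 without WT library 2. In the fit without WT library 1, WT was library 2 alone, whose 2 reads were under the floor of 3 reads. Among markers of pigment and neural crest cells, Sox10 was covered by 29 and 7 reads (WT) and by 38 and 22 reads (eIF5A-KO label). Tyr ran the other way between the WT libraries, with 4 and 12 reads, and had 2 in each library labelled eIF5A-KO, while Mlana had 0 and 2 reads in WT and none under the knockout label. Tyrp1 was at 0 in all 4 libraries, Dct and Pmel had between 0 and 4 reads in a library, and the 6 markers summed to 12.8 to 17.4 RPKM in WT and 10.1 to 14.04 RPKM under the knockout label. Their part in the split of the WT libraries was not tested.

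Tfec (ENSMUSG00000029553; chromosome 6, 16833373 to 16898441, minus strand; 7 exons in the transcript used) codes for a family member known mainly from macrophages. It had 0 reads in each of the 4 libraries and was not tested. The floor of 3 reads corresponds to 0.890 and 1.14 RPKM in WT and 0.591 and 0.664 RPKM in the libraries labelled eIF5A-KO, so a level up to these values would have gone unseen. Of 10 macrophage and osteoclast markers, Itgam, C1qa and Aif1 were also at 0 throughout, and the list summed to 39.4 to 72.2 RPKM in WT and 46.2 to 73.2 RPKM under the knockout label. Its members, named here after their values were seen, did not share a direction: Adgre1 had 0.512 and 1.97 RPKM in WT against 4.43 and 4.21 RPKM, Lyz2 had 11.3 and 12.9 against 4.19 and 5.64 RPKM, and Cd68 had 15.8 and 23.6 against 14.9 and 14.8 RPKM.

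Tfe3 led the family in each of the 4 libraries. Of the summed RPKM of the 4 factors, Tfe3 took 45.6% and 77.4% in WT, and 60.7% and 49.5% of it in the libraries labelled eIF5A-KO. Mitf took 45.4% and 8.57% in WT, and 39.3% and 27.7% under the knockout label. Tfeb took the least of the 3 detected factors in WT library 1 and in both libraries labelled eIF5A-KO, with 9.02% and 14.05% in WT and 0% and 22.7% under the knockout label. Tfe3 and Mitf were thus nearly equal in WT library 1, and in WT library 2 Mitf was below Tfeb.

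The regulators were read more deeply than Tfeb. Flcn (ENSMUSG00000032633; chromosome 11, 59791408 to 59810016, minus strand; 13 exons in the transcript used) codes for folliculin, the subunit that supplies the arginine used in GTP hydrolysis. Its signal was 7.68 and 8.35 RPKM in WT, from 20 and 17 reads, whereas the libraries labelled eIF5A-KO had 4.08 and 4.58 RPKM, from 16 in each. The groups did not overlap, and the distance between them exceeded the distance within either. WT averaged 8.01 ± 0.476 RPKM and the eIF5A-KO label 4.33 ± 0.355 RPKM (SD, n = 2 each). The log2 fold change was -0.76 ± 0.35 (SE) by limma, where p was 0.0770 before and 0.676 after adjustment. The 95% interval, from -1.63 to 0.11, holds changes from 3.09-fold lower to 1.08-fold higher. Pooled reads gave 0.542 of the WT rate, with an exact 95% counting interval of 0.327 to 0.894. This interval too holds for the authors' library sizes, and the log2 fold change became -0.23 once every library had an equal sum over all genes. Flcn had the smallest p of the 6 tested genes and did not pass.

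Fnip1 and Fnip2 code for the alternative partners of folliculin. Fnip1 (ENSMUSG00000035992; chromosome 11, 54438199 to 54518235, plus strand; 18 exons in the transcript used) was at 2.80 and 4.17 RPKM in WT, from 12 and 14 reads, whereas the libraries labelled eIF5A-KO had 4.49 and 7.48 RPKM, from 29 and 43 reads. The groups did not overlap, although WT library 2 and eIF5A-KO library 1 lay close together. WT averaged 3.49 ± 0.974 RPKM and the eIF5A-KO label 5.98 ± 2.11 RPKM (SD, n = 2 each). By limma the estimate of log2 fold change was 0.62 ± 0.42 (SE; adjusted p 0.697), within a 95% interval of -0.40 to 1.65. Pooled reads gave 1.73 times the WT rate, with an exact 95% counting interval of 1.09 to 2.83. Leaving out single libraries moved the log2 fold change from 0.31, without eIF5A-KO library 2, to 0.94, without eIF5A-KO library 1, and it was 0.40 without WT library 1.

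Fnip2 (ENSMUSG00000061175; chromosome 3, 79455974 to 79567796, minus strand; 18 exons in the transcript used) was at 7.34 and 4.57 RPKM in WT, from 37 and 18 reads, whereas the libraries labelled eIF5A-KO had 3.56 and 5.33 RPKM, from 27 and 36 reads. WT library 2 fell between the libraries labelled eIF5A-KO, so the groups overlapped. By limma the estimate of log2 fold change was -0.34 ± 0.41 (SE; adjusted p 0.794), within a 95% interval of -1.36 to 0.67. Without WT library 1 it was -0.052, without eIF5A-KO library 1 it was -0.11, without WT library 2 it was -0.63 and without eIF5A-KO library 2 it was -0.58. The partners of folliculin therefore had fold changes of opposite sign, except with libraries scaled to the same sum over all genes, where Fnip2 was 0.16 and Fnip1 1.12, and with a minimum mean of 5 RPKM, where Fnip1 was not tested. Neither passed the test at an adjusted p under 0.05, and the difference between them was not tested.

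**Figure D2:**
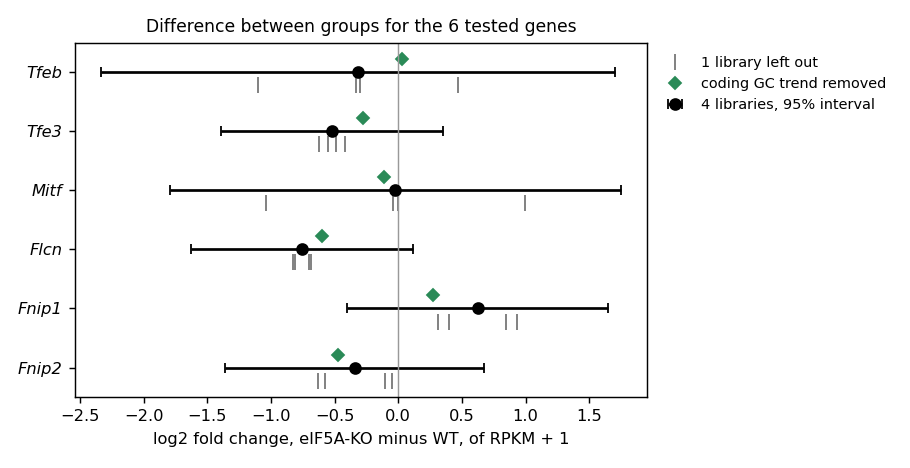
Log2 fold change of RPKM + 1, eIF5A-KO minus WT (horizontal axis), of the 6 tested genes. Black points and bars are the limma estimate and its 95% interval over 4 libraries, grey ticks are the values with 1 library left out, and green diamonds are the values after the trend on coding GC was removed; every 95% interval crosses 0, and the ticks of Mitf reach from -1.04 to 0.99.

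Levels were then compared between genes per length. In WT the order by mean RPKM was Flcn, Tfe3, Fnip2, Fnip1, Mitf, Tfeb and Tfec. The WT ranges of Tfe3 and Fnip2 overlapped, as did those of Fnip1 and Mitf and of Mitf and Tfeb, so these neighbours did not differ beyond their spread. In the libraries labelled eIF5A-KO the order by mean RPKM was Fnip1, Fnip2, Flcn, Tfe3, Mitf, Tfeb and Tfec, and each of the first 3 overlapped with the next, as did Tfeb with Tfec. RPKM divides by all annotated exon bases, and for all 7 genes the table's length equalled the union of exons in GENCODE M21. Coding bases were 19.1% of that length in Tfe3, whose annotation holds 4 transcripts with retained introns, and 49.4% in Fnip1. Dividing by the longest coding sequence instead, a choice made once the data had been examined, put Tfe3 first in both groups. In RPKM per coding length, Tfe3 was at 32.6 ± 1.06 (SD, n = 2) in WT, above Flcn at 19.9 ± 1.18 (SD, n = 2), and at 21.2 ± 2.70 (SD, n = 2) in the libraries labelled eIF5A-KO, above Fnip1 at 12.2 ± 4.30 (SD, n = 2). The ranges of these leading pairs did not overlap. By group mean, Tfeb stayed the lowest detected gene on this scale, at 4.06 ± 0.118 (SD, n = 2) and 3.48 ± 4.92 (SD, n = 2). In WT library 2, though, Mitf was below it, at 2.69 against 3.97. This scale takes all reads as lying in coding sequence, which the table cannot show.

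**Figure D3:**
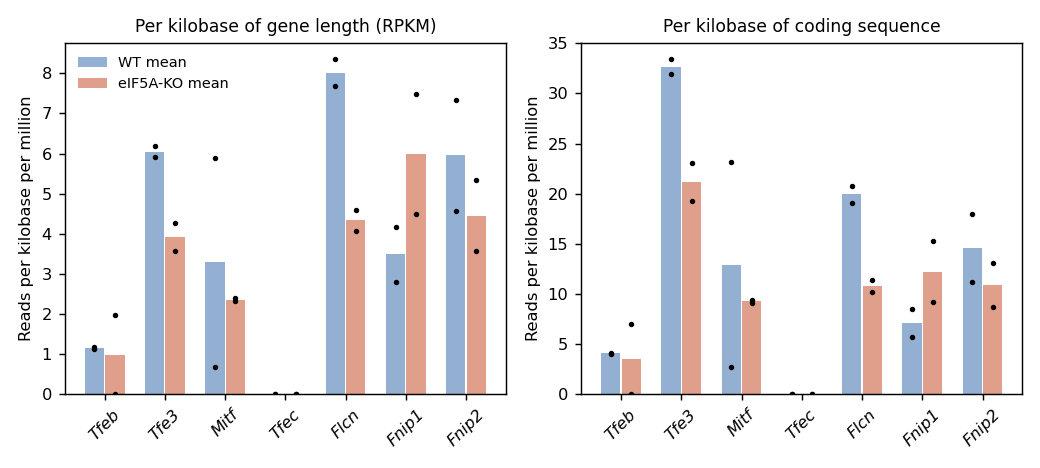
Reads scaled by length and by the authors' library size (vertical axes) of the 7 genes, divided by the gene length of the table (left, RPKM) and by the longest coding sequence (right). Bars are group means of 2 libraries, WT in blue and eIF5A-KO in red, and dots are single libraries; Tfe3 ranks below Flcn in WT on the left and above every other gene on the right, at 32.6 in WT.

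Base composition moved with the fold changes. Over protein-coding genes split into deciles by coding GC, the median log2 fold change went from 0.37 in the lowest decile to -0.48 in the highest. Fnip1, at 43.5% GC, lay in the lowest decile, and its 0.62 was within the middle 50% of that decile, which ended at 0.76. Tfeb at 60.6% and Tfe3 at 58.9% lay in decile 9, with a median of -0.25 and a middle 50% from -0.68 to 0.16 that held both. Flcn at 57.3% lay below the middle 50% of decile 8, which began at -0.58, and Fnip2 at 52.0% lay below that of decile 5, which began at -0.23. With the trend on GC removed, the log2 fold change was 0.28 for Fnip1, 0.030 for Tfeb, -0.27 for Tfe3, -0.12 for Mitf, -0.60 for Flcn and -0.47 for Fnip2, and the adjusted p by limma was between 0.795 and 0.997. Fnip1 thus kept less than 50% of its value.

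**Figure D4:**
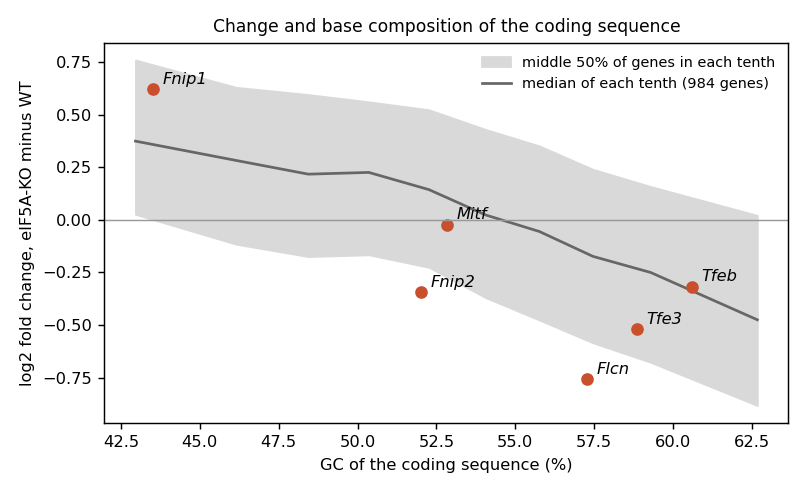
Log2 fold change, eIF5A-KO minus WT (vertical axis), against the GC of the coding sequence in percent (horizontal axis). The line joins the medians of deciles of 984 protein-coding genes each, placed at the median GC of the decile, the grey band holds the middle 50% of genes, and red points are the 6 tested genes; Tfeb lies near the line, Fnip1 lies above it inside the band, Mitf and Tfe3 lie below it inside the band, and Flcn and Fnip2 lie below the band.

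The genes whose profile over the 4 libraries was most like that of Tfeb were found by the root mean square distance between profiles of log2(RPKM + 1), each centred on its own mean, among 5514 candidates with a mean of at least 5 RPKM. They were Mtmr6 at a distance of 0.034, Pebp1 at 0.065 and Mlf2 at 0.068, each lowest in eIF5A-KO library 1 and highest in eIF5A-KO library 2. The reads of Mtmr6 numbered 17 and 12 in WT, then 9 and 31 under the knockout label. For Tfe3, the member with most reads, the nearest were Sp3 at 0.019, Fuca1 at 0.022 and the microRNA gene Mir200b at 0.026. With 4 libraries and this many candidates, close profiles are a description of these libraries.

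The wider pathway was examined through gene lists, beginning with the Rag GTPases and Ragulator, which hold mTORC1 and TFEB at the lysosome. Of 10 genes, 8 were tested, 5 were above 0 and 3 below, and the median log2 fold change was 0.20 beside 0.00026 over all genes tested. Lamtor1, the Ragulator subunit that anchors the complex in the membrane, was the 1 of 8 at an unadjusted p under 0.05, where 4.46% of all genes were lower and 2.86% higher. It had 6.71 and 9.24 RPKM in WT and 4.12 and 1.93 RPKM in the libraries labelled eIF5A-KO, a difference that limma estimated at -1.20 ± 0.44 (SE) in log2 terms (adjusted p 0.672). Rragc and Rragd code for RagC and RagD, the substrates of the folliculin complex. Rragc had 6.95 and 7.62 RPKM in WT and 8.91 and 15.2 RPKM under the knockout label, and Rragd 2.89 and 2.46 RPKM against 0.639 and 1.68 RPKM. Their log2 fold changes were 0.61 and -0.81 with an adjusted p of 0.697 each by limma, so neither passed. Rragb had 1 read in all.

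In the list of mTORC1 and its Rheb and TSC controls, 9 of 10 genes were tested, with 2 above 0, 7 below and a median of -0.42. Akt1s1, which codes for the inhibitory subunit PRAS40 and was named after its values were seen, was the 1 of 9 at an unadjusted p under 0.05, beside the 4.46% of all genes that were lower. It had 14.04 and 14.51 RPKM in WT and 5.38 and 7.25 RPKM in the libraries labelled eIF5A-KO, a difference that limma estimated at -1.07 ± 0.37 (SE) in log2 terms (adjusted p 0.672). The kinase gene Mtor had 7.71 and 4.62 RPKM in WT and 5.13 and 4.41 RPKM under the knockout label, and Rptor, whose product recruits substrates, had 7.14 and 5.04 against 4.42 and 4.04 RPKM. Tsc2, which codes for the GTPase-activating subunit that turns Rheb off, had 7.24 and 4.85 against 4.24 and 3.09 RPKM. Their log2 fold changes of -0.28, -0.42 and -0.59 had adjusted p from 0.697 to 0.827 by limma. The lowest and highest of the list were Rhebl1 at -1.30, from 10 reads in all, and Mlst8 at 0.75, from 16.

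All 16 genes of the GATOR complexes and amino acid sensors, which report amino acid levels to the Rag GTPases, were tested. There were 10 above 0 and 6 below, the median was 0.31, and 0 passed at an unadjusted p under 0.05 in either direction by limma, beside 7.32% of all genes. There was 1 higher gene with the GC trend removed, and there were 2 with libraries scaled to equal sums over all genes. The share of all genes called under these settings was not counted. The highest was Castor1, which codes for the arginine sensor, at 1.09, and the lowest its relative Castor2 at -0.83, with adjusted p of 0.676 and 0.697 by limma. The 5 genes of calcineurin and lysosomal calcium release, which return TFEB to the nucleus, were all above 0 with a median of 0.93. That median is the value of Ppp3cc, with 4 and 0 reads in WT and 4 and 9 under the knockout label, and it was 1.33 with a pseudocount of 0.1. Ppp3cb, a catalytic subunit of calcineurin, had 1.88 and 1.93 RPKM in WT and 5.63 and 4.36 RPKM in the libraries labelled eIF5A-KO. The difference was estimated by limma at 1.04 ± 0.38 (SE) in log2 terms, with p of 0.0359 before and 0.672 after adjustment, and it was the 1 of 5 at an unadjusted p under 0.05, beside 2.86% of all genes higher. The lysosomal channel gene Mcoln1 had 3.07 and 0.562 RPKM in WT, from 14 and 2 reads, so WT library 2 was under the floor of 3 reads. Under the knockout label it had 3.503 and 4.589 RPKM, from 24 and 28 reads. Its log2 fold change by limma was 0.99, with an adjusted p of 0.697. Ppp3ca, the lowest of this list, was at 0.094.

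Of the 7 genes for 14-3-3 proteins, 6 were above 0 and the median was 0.28. Ywhaq had 8.67 and 13.2 RPKM in WT and 25.9 and 21.4 RPKM in the libraries labelled eIF5A-KO, a difference that limma estimated at 1.07 ± 0.41 (SE) in log2 terms (adjusted p 0.672). Sfn was the lowest, from 2 and 3 reads in WT and 0 in the other group, which is at or under the floor in both, so no fold is given. These were the 2 of 7 at an unadjusted p under 0.05, beside 7.32% of all genes in either direction, and 1 of the 2 is Sfn with its 5 reads.

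Genes known as targets of TFEB through the CLEAR element, an E-box, were the last list, of 36 genes of which 34 were tested. There were 24 above 0 and 10 below, with a median of 0.24, beside a median of 0.049 over all protein-coding genes tested. None passed at an adjusted p under 0.05 by limma, and at an unadjusted p under 0.05 there were 0 lower and 1 higher, against the 4.46% and 2.86% of all genes given above. The 1 gene was Gla, the lysosomal alpha-galactosidase, with 3.05 and 2.60 RPKM in WT and 8.10 and 5.69 RPKM in the libraries labelled eIF5A-KO, a difference that limma estimated at 1.03 ± 0.38 (SE) in log2 terms (adjusted p 0.672). Sqstm1, the autophagy receptor p62, had 156 and 231 RPKM in WT and 196 and 280 RPKM under the knockout label, so the groups overlapped. Lamp1, a lysosomal membrane glycoprotein, had 50.8 and 93.6 against 96.4 and 108 RPKM, and the protease gene Ctsd had 70.6 and 46.9 against 55.8 and 46.9 RPKM. Gpnmb, often used as a readout of MiT/TFE activity, had 8.40 and 6.52 against 7.79 and 9.69 RPKM. The log2 fold changes of Sqstm1, Lamp1, Ctsd and Gpnmb were 0.31, 0.56, -0.17 and 0.21, with adjusted p from 0.731 to 0.915 by limma. Rragd, given above and also a member of this list, was its lowest gene. Ppargc1a had 4 reads in all, and Atp6v0d2 had none.

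The unadjusted calls of the lists changed with the processing, and the share of all genes called under each alternative was not counted. With the GC trend removed, the counts of higher genes in the calcineurin and CLEAR lists, which were Ppp3cb and Gla, were both 0. The Rag and Ragulator, calcineurin and CLEAR counts were 0 with a minimum mean of 5 RPKM, which also removes genes from the test. By limma-voom the CLEAR count was 0. The 14-3-3 count of higher genes was 0 with equal sums over protein-coding genes and 2 with quantile normalization. With no filter on low values the Rag and Ragulator, calcineurin and CLEAR counts were 0, and with trend=FALSE the Rag and Ragulator count, the 14-3-3 count of higher genes and the CLEAR count were 0. The mTORC1 count of lower genes was 2 with no filter, with trend=FALSE, with a pseudocount of 0.1 and with protein-coding genes only. Several list values also rested on single libraries. Without eIF5A-KO library 1, and also without eIF5A-KO library 2, the genes at an unadjusted p under 0.05 numbered 0 in the Rag and Ragulator, mTORC1 and calcineurin lists and 0 higher in the 14-3-3 and CLEAR lists. The Rag and Ragulator count of lower genes was 0 without WT library 1 or WT library 2 too, the calcineurin count was 0 without WT library 2, and the 14-3-3 count of higher genes was 0 without WT library 1. Other counts rose by 1 gene. Without WT library 1 there was 1 higher gene in the GATOR list, 1 higher in the mTORC1 list and 1 lower in the CLEAR list, and without WT library 2 there was 1 higher in the Rag and Ragulator list and 2 higher in each of the 14-3-3 and CLEAR lists. Without WT library 1 the Rag and Ragulator median was -0.36, and it was -0.040 without eIF5A-KO library 1, so its sign was not stable. For calcineurin the median was 0.23 without WT library 2, 0.55 without eIF5A-KO library 2 and 0.094 when a mean of 5 RPKM was required. For GATOR it was 0.0044 without WT library 2 and 0.030 without eIF5A-KO library 2, and leaving out WT library 2 gave the mTORC1 list -0.83 while leaving out WT library 1 gave it -0.21. Without WT library 2 the 14-3-3 median was 0.48, and it was 0.64 without eIF5A-KO library 2, and the CLEAR median was 0.13 without eIF5A-KO library 1.

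**Figure D5:**
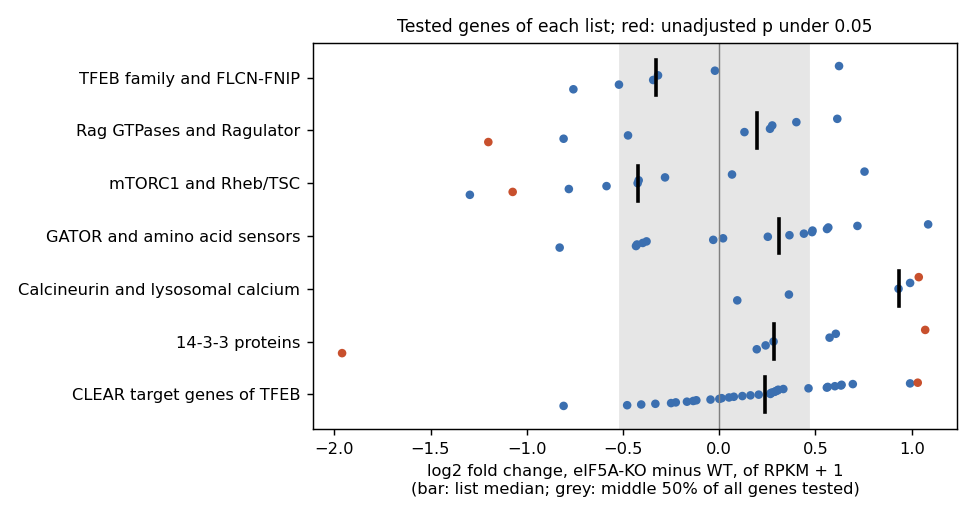
Log2 fold change, eIF5A-KO minus WT (horizontal axis), of each tested gene in the TFEB family with its regulators and in the 6 pathway and target lists (rows). Points are genes, red at an unadjusted p under 0.05, black bars are list medians, and the grey band holds the middle 50% of all genes tested; the list medians run from -0.42 for mTORC1 to 0.93 for calcineurin and lysosomal calcium. The point farthest left is Sfn, a fitted value from 5 reads.

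The promoters of the family were searched for the same E-box, CACGTG, which reads alike on both strands, in RefSeq windows of build GRCm38.p6 from 250 bases before to 50 after the start site. All 7 genes matched, and 1 of them, Fnip1, held it, against 8.09% of 27025 genes. The site lay 75 bases before the start site and is shown because Fnip1 is a member of the family's own regulators, with the E-box in capitals.
Fnip1 (chr11:54438092-54438121, plus strand): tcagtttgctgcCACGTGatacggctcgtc
Of 29 CLEAR genes with a promoter in the RefSeq table, 13 (44.8%) held CACGTG and 7 (24.1%) the longer TCACGTGA that contains it, which 0 of the 7 family and regulator genes and 1.12% of all genes held. A match describes these letters, not a bound site.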

How the data were processed

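Ribosome profiling libraries from WT and eIF5A-KO myoblasts (2 each) were analysed from the RPKM values deposited by the authors. Per the study's methods, low-quality, rRNA and tRNA reads were removed, reads were mapped with TopHat2 against Ensembl 97 (build mm10) and counted with HTSeq. The titles say Polysome-Seq, whereas the extraction text describes RNase digestion and protected fragments, and the labels and the series' design text give different times in cycloheximide. The values are taken here as ribosome-protected signal from the extraction text. RPKM times the deposited gene length gave whole multiples of 1 step (tolerance 0.01) for 100% of values above 0. The authors' library sizes were 602863, 471136, 906990 and 807705, which equal median-of-ratios size factors over 10490 genes times the geometric mean total.

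Groups came from titles. limma 3.58.1 (R 4.3.3, trend=TRUE) was fitted to log2(RPKM + 1) where the mean over libraries reached 1 RPKM, with Benjamini-Hochberg adjustment. The fit was also run on simulated data. Changes were put there only in more deeply read genes, so the simulation does not cover genes read as thinly as Tfeb. A fold change on this scale understates change in low genes. With 2 against 2, an exact permutation test cannot go below p = 0.333. Intervals used scipy 1.17.1 and alignments biopython 1.88. Annotation came from GENCODE M21, which matched the table's coordinates for all 7 members. Named were the members, fixed pathway genes, each list's lowest and highest gene, and nearest profiles. Akt1s1 and the single marker genes were named outside that rule. The members, lists and tests were chosen with earlier results of these data known. Proline runs, protein identities and shared residues came from translating the coding sequences.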

Additional observations from a re-analysis of the deposited data

How the results depend on the processing

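Of the 6 tested genes, 0 passed at an adjusted p under 0.05 in any of 17 alternatives, and adjusted p lay between 0.289 and 1.00 by limma. The alternatives included a pseudocount of 0.1, no filter, a minimum mean of 5 RPKM, at least 20 reads in all, and 4 other scalings. The rest were protein-coding genes only, removal of the GC trend, trend=FALSE, the replicate block, each library left out, and limma-voom. limma-voom on the recovered reads was chosen after the data were seen and stands in for 3 planned count models, which were not run. With 1 library left out, the lone library is taken to vary like the other group. Of 97 fold changes under alternatives, 90 kept their sign. Tfe3 stayed between -0.63 and -0.012, Flcn between -0.88 and -0.23, and Fnip1 between 0.28 and 1.12, which was the value with libraries scaled to the same sum over all genes and had an unadjusted p of 0.0342. That scaling moved the median of all genes to 0.47, and relative to it Fnip1 was at 0.65, Flcn at -0.70 and Tfe3 at -0.48. With it the list medians were 0.31 (Rag and Ragulator), -0.50 (mTORC1), 0.20 (GATOR), 0.73 (calcineurin), 0.39 (14-3-3) and 0.31 (CLEAR) relative to that median. It turned Fnip2 to 0.16 and Mitf to 0.35, which were -0.31 and -0.12 relative to that median. Mitf also turned positive with a pseudocount of 0.1 (0.18) and with quantile normalization (0.029), and ran from -1.04 to 0.99 with a library left out. The upper value of Mitf there rests on a WT library with 2 reads. Tfeb was 0.030 with the GC trend removed, -1.46 with a pseudocount of 0.1, -1.69 by limma-voom, and between -1.10 and 0.47 with a library left out, where the lower value comes from 1 library with 0 reads and is set by the pseudocount. With libraries scaled to the same sum over all genes, 8 CLEAR genes were higher at an unadjusted p under 0.05, in place of 1. The share of all genes called with that scaling was not counted, and the 2.86% given above is from the main fit. Counts under that scaling therefore have no background beside them. The same scaling gave 3 higher genes in the 14-3-3 list in place of 1, 0 lower and 1 higher in the Rag and Ragulator list in place of 1 and 0, and 0 lower in the mTORC1 list in place of 1. The cause was not tested. Tfeb had too few reads for the minimum of 20 reads and for that of 5 RPKM, which also removed Tfe3, Mitf and Fnip1. Same-numbered libraries share only a number (correlation of their deviations 0.0575), and with the replicate block the log2 fold changes were equal, 0 of the 6 genes passed, and at an unadjusted p under 0.05 the calcineurin list had 0 genes, the 14-3-3 list 0 and the GATOR list 1.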
